A study of Mus musculus with 9 samples.

Results

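The 10 genes described here encode hepcidin and the main proteins that sense, carry, take up, store and export iron: Hamp, Hamp2, Bmp6, Hfe, Tfr2, Trf, Tfrc, Slc11a2, Fth1 and Slc40a1. They are picked out of the table by gene symbol, and all 10 were present among the 16755 genes of the deposited table. RNA-seq had been run on livers of 9 mice in 3 groups of 3. Scd2f/f mice carry a floxed exon of Scd2, which encodes a stearoyl-CoA desaturase. All 3 groups carry this floxed gene on a C57BL/6 background by the labels, C57BL/6J by the study's methods, which describe male mice. The first group was Scd2f/f mice that the labels call untreated, and for their age the sources used here give only a range over all mice of the study. The second was Scd2f/f mice given 10 mg/kg of the liver carcinogen diethyl nitrosamine (DEN) when they were 2 weeks old and a Western alcohol diet (WAD) from 6 weeks on. WAD is rich in lard and cholesterol and contains ethanol. The third was Scd2f/f;Col1a1-Cre (Scd2f/f;CC) mice on the same DEN + WAD regimen. The labels give 4 months of WAD, and the study's methods give a longer time. The labels also attach the DEN + WAD text to the untreated mice, against their own treatment field. The study's results describe the tissue of the DEN + WAD mice as tumor-adjacent liver (TAL), the name used here, while its RNA methods write NTL and the labels liver. The Col1a1 promoter drives Cre in activated hepatic stellate cells and portal fibroblasts, so hepatocytes, the source of hepcidin, are not its target. There was no untreated Scd2f/f;CC group, and DEN was not separated from WAD.

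The values are the authors' group means of normalized read counts, 1 per gene and group, to 3 significant digits. The table analysed holds no value of a single mouse. The spread between mice and the depth of each library are therefore unknown, and no difference below was tested. As a yardstick, each ratio of means is set beside the ratios of all genes. Scd2 itself had a mean of 2.46 in untreated liver, 6.47 in Scd2f/f TAL and 1.87 in TAL of Scd2f/f;CC mice, which put it 3.46-fold lower in Scd2f/f;CC TAL than in Scd2f/f TAL. Of the marker lists, that of hepatocytes had the largest summed means in every group. Over 8 of 8 markers they were 39388 in untreated liver, 39450 in Scd2f/f TAL and 44007 in TAL of Scd2f/f;CC mice. Alb alone had means of 21300, 20900 and 22700 in the same order. Such sums are not divided by length and do not measure shares of cells. The means summed over all genes to 820581 in untreated liver, 658322 in Scd2f/f TAL and 739723 in TAL of Scd2f/f;CC mice, while their 75th percentiles were 15.5, 15.5 and 15.4. Scaling the groups to an equal sum shifted the median log2 ratio of all genes by 0.32 in Scd2f/f TAL against untreated liver and by -0.17 between the TAL groups. Values under this scaling are given as "with an equal sum".

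Hepcidin is a peptide hormone that hepatocytes secrete. It binds ferroportin, the only known iron exporter of vertebrate cells, and causes its internalization and degradation, so that less iron leaves enterocytes, macrophages and hepatocytes. Hepcidin transcription follows BMP6 and BMP2 from sinusoidal endothelial cells through hemojuvelin and SMAD proteins, iron-loaded transferrin through HFE and TFR2, and inflammation through IL6 and STAT3. Cells also adjust uptake and storage on their own: iron regulatory proteins bind iron responsive elements (IREs), hairpins in untranslated regions, and at low iron they block translation of mRNAs with a 5′ element and stabilize the Tfrc mRNA through its 3′ elements. Iron loading of the liver is a known companion of alcoholic liver disease.

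The promoters of Hamp and its paralog Hamp2 are shown because the known BMP and STAT3 inputs act there. Both are given 5′ to 3′ on the minus strand of GRCm38.p6, from RefSeq, at chr7:30944030-30944179 for Hamp and chr7:30924182-30924331 for Hamp2. The capitals mark the core of the BMP response element, GGCGCC, or the letters at its place in Hamp2, and the STAT3 site, TTCTTGGAA.
Hamp promoter: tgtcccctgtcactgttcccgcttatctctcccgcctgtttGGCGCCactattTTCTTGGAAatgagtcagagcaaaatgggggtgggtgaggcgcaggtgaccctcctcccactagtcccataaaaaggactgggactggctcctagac
Hamp2 promoter: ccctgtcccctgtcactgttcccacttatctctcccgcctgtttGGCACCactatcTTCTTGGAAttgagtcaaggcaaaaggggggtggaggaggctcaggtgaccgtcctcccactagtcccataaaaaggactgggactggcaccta
The STAT3 letters were the same in both. At the BMP core, Hamp2 carried the substitution G4A, with the Hamp base first and positions counted from the first base of the core. The core began 109 bases upstream of the RefSeq start of Hamp and the STAT3 site 97 bases upstream. Over the 250 bases before the start sites, the promoters could be aligned without gaps at 247 positions and were identical at 227 of them (91.9%). Searched on both strands, and with the motifs not overlapping in these promoters, GGCGCC was found within the 250 bases before the start in 9.59% of 32851 RefSeq mouse promoters and TTCTTGGAA in 0.365%. RefSeq promoters were at hand for 7 of the 10 genes and were searched over the same stretch. GGCGCC was found in Hamp and in 1 of 2 promoters of Tfrc, and TTCTTGGAA in Hamp and Hamp2. A match is a description of the letters and not evidence of binding.

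IREs found in 3 of the 10 genes are shown. Those of the storage and export mRNAs lie in the 5′ UTR, and those of an uptake mRNA in the 3′ UTR. They come from GENCODE M21 transcripts on GRCm38 and were searched as a CAGTGN loop closed by 5 base pairs (G-T pairs allowed), with an unpaired C on the 5′ side at their foot. The capitals mark the loop.
Fth1 5′ UTR, chr19:9982733-9982759, plus strand: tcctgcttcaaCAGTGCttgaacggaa
Slc40a1 5′ UTR, chr1:45925466-45925492, minus strand: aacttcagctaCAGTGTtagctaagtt
Tfrc 3′ UTR, chr16:32631220-32631246, plus strand: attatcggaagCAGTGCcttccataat
Tfrc 3′ UTR, chr16:32631599-32631625, plus strand: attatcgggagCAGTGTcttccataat
Tfrc 3′ UTR, chr16:32631664-32631690, plus strand: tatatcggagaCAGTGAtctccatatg
Tfrc 3′ UTR, chr16:32631711-32631737, plus strand: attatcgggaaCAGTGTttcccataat
Such a hairpin was found in the 5′ UTR of 28 of 20824 genes (0.134%) and in the 3′ UTR of 126 of 20903 genes (0.603%). Of the 10 genes, Fth1 and Slc40a1 had 1 each in the 5′ UTR and Tfrc had 4 in the 3′ UTR. The search required an unbroken stem of 5 pairs, so IREs with another stem are missed. A gene without a match, such as Slc11a2, may therefore still hold an IRE, and Tfrc may hold more.

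Levels between genes were compared as the group mean per kilobase of merged exons, on the assumption that the authors had not already divided by length. Trf, the plasma iron carrier transferrin, stood highest in every group, at 1575 per kilobase in untreated liver, 1961 in Scd2f/f TAL and 1780 in TAL of Scd2f/f;CC mice. Hamp followed in untreated liver at 265.9 per kilobase, then Fth1 at 126.3, and Bmp6 was lowest at 0.341. With the length of the principal transcript in place of merged exons, Fth1 came to 293.2 per kilobase in untreated liver and stood above Hamp. In Scd2f/f TAL, Hamp was at 137.1 and Fth1 at 157.7 per kilobase, so Hamp ranked below Fth1 there with either length. The order Tfr2, then Slc40a1, held in every group with both lengths, at 25.37 and 6.722 per kilobase in untreated liver. Without values of single mice, it cannot be said which neighbours in this order differed beyond their spread.

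**Figure D1:**
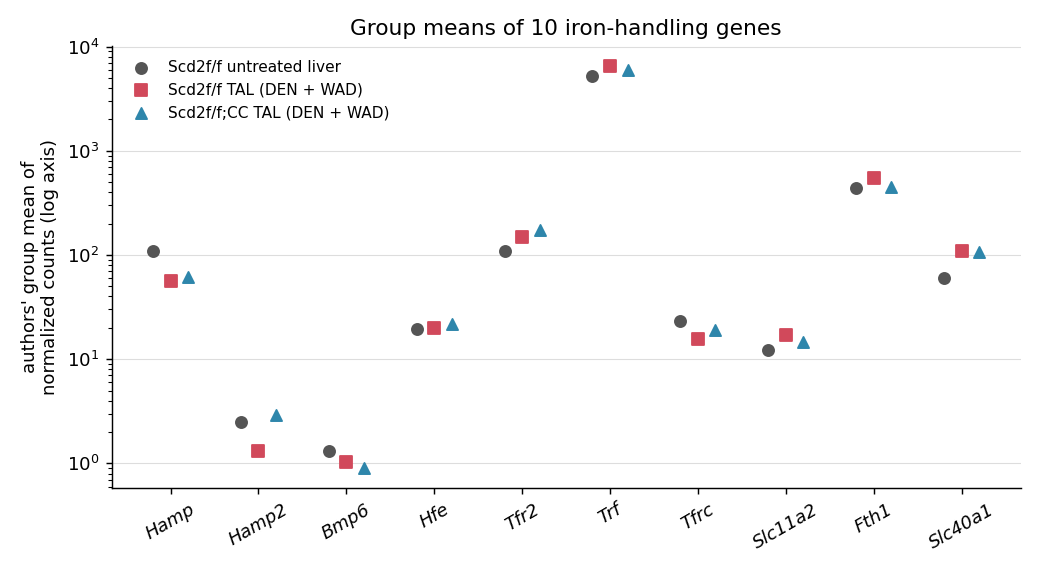
Authors' group means of normalized counts for the 10 genes (vertical log axis), with 1 point for each group: untreated Scd2f/f liver, Scd2f/f TAL and Scd2f/f;CC TAL. There are no error bars, since the table holds group means alone. Hamp goes from 109 in untreated liver to 56.2 and 62.0 in the TAL groups, and Slc40a1 from 60.5 to 109 and 107.

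Scd2f/f TAL against untreated Scd2f/f liver compares the RNA levels of these genes after DEN + WAD with those of untreated mice. The values are RNA alone, and iron and the encoded proteins are not among them. Both hepcidin genes had lower means in TAL, while ferroportin (Slc40a1) had a higher mean. Transferrin, ferritin heavy chain (Fth1), Tfr2 and Slc11a2 were higher by smaller ratios, and the transferrin receptor Tfrc was lower. No gene of the 10 was past 2-fold, where 14.1% of all genes were past 2-fold in either direction. At 1.5-fold, Slc40a1 was higher, against 17.2% of all genes, and Hamp and Hamp2 were lower, against 11.3% of all genes. The median log2 ratio of the 10 genes was 0.18, with 6 higher and 4 lower, beside a median of 0.05 over all genes. Among all 16755 genes, 9004 were higher and 7676 lower.

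Hamp (7:30942368-30944032, minus strand, mm10), which encodes hepcidin, had means of 109 in untreated liver, 56.2 in Scd2f/f TAL and 62.0 in TAL of Scd2f/f;CC mice. It was 1.94-fold lower in Scd2f/f TAL than in untreated liver (log2 ratio -0.96), and 11.7% of 12347 expressed genes (a mean of 1 or more in any group) had a larger ratio in either direction. With the groups scaled to an equal sum, the log2 ratio was -0.64. Both TAL groups lay below untreated liver and close to each other. Of the hepatocyte markers, 2 were higher and 6 lower in this comparison (6 higher and 2 lower with an equal sum), with log2 ratios from -1.46 for Tat, a tyrosine-degrading enzyme, to 0.44 for Apob and a median of -0.16. Their part in the Hamp values was not tested. In such bulk tissue, fewer cells of a type and less RNA per cell cannot be told apart.

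Hamp2 (7:30922372-30924681, minus strand), the mouse paralog that has no established role in iron balance, had much lower means, of 2.51 in untreated liver, 1.31 in Scd2f/f TAL and 2.90 in TAL of Scd2f/f;CC mice. It was 1.92-fold lower in Scd2f/f TAL than in untreated liver (log2 ratio -0.94). The genes lie 17686 bases apart, and their principal transcripts, of 410 and 437 bases, were identical at 93.3% of aligned positions, with a longest shared run of 87 bases. Reads that fit both transcripts had to be divided between them by the authors' quantification, so the values of Hamp2 are uncertain.

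Among the sensors upstream of hepcidin, Bmp6 (13:38345716-38499728, plus strand), the endothelial ligand, had means of 1.33, 1.03 and 0.905 in untreated liver, Scd2f/f TAL and Scd2f/f;CC TAL, in that order. It stood at the floor of the list, with 34.9% of all genes below it in untreated liver. Its log2 ratio of Scd2f/f TAL to untreated liver was -0.37. The endothelial markers, by contrast, were higher in Scd2f/f TAL for 10 of 10 genes, beside 9004 of all 16755 genes. Their summed means were 143.8 in untreated liver and 188.1 in Scd2f/f TAL. The smallest log2 ratio was 0.015, for Erg. After centring the ratios on the median of expressed genes, 9 were higher and 1 lower. Their part in the Bmp6 values was not tested.

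Hfe (13:23702034-23710854, minus strand), the membrane protein mutated in hereditary hemochromatosis, had a nearly even pair of means in this comparison. Its means were 19.6 in untreated liver, 20.1 in Scd2f/f TAL and 21.7 in TAL of Scd2f/f;CC mice, and 92.8% of genes had a larger ratio than its log2 ratio of 0.04. With an equal sum, its log2 ratio was 0.35, and Bmp6 was then nearest to even, at -0.05. Tfr2 (5:137569840-137587481, plus strand), the hepatocyte receptor that senses iron-loaded transferrin, had means of 110 in untreated liver, 149 in Scd2f/f TAL and 172 in TAL of Scd2f/f;CC mice. The log2 ratio of Tfr2 in Scd2f/f TAL against untreated liver was 0.44. Its mean was thus 1.36-fold higher in Scd2f/f TAL and 1.56-fold higher in TAL of Scd2f/f;CC mice than in untreated liver.

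Among the genes of transport and uptake, Trf (9:103204001-103230444, minus strand) had means of 5230 in untreated liver, 6510 in Scd2f/f TAL and 5910 in TAL of Scd2f/f;CC mice. Its log2 ratio in Scd2f/f TAL against untreated liver was 0.32. Tfrc (16:32608920-32632794, plus strand), the receptor by which most cells take up transferrin iron, had means of 23.3 in untreated liver, 15.7 in Scd2f/f TAL and 19.0 in TAL of Scd2f/f;CC mice. Its mean was 1.48-fold lower in Scd2f/f TAL than in untreated liver (log2 ratio -0.57), with 24.0% of genes past that ratio, and it was -0.29 in Scd2f/f;CC TAL. Slc11a2 (15:100387898-100425072, minus strand), the divalent metal transporter DMT1 that moves iron out of endosomes, had means of 12.3, 17.1 and 14.5 in the same order, a log2 ratio of 0.48 in Scd2f/f TAL. Tfrc and Slc11a2, which act at successive steps of the same endocytic route, thus stood on opposite sides of untreated liver.

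For storage, Fth1 (19:9982703-9985092, plus strand), the ferritin subunit that oxidizes iron for storage, had means of 438 in untreated liver, 547 in Scd2f/f TAL and 454 in TAL of Scd2f/f;CC mice. The log2 ratio of Fth1 in Scd2f/f TAL was 0.32, and 45.7% of genes had a larger one. For export, Slc40a1 (1:45908068-45926523, minus strand), ferroportin, had means of 60.5 in untreated liver, 109 in Scd2f/f TAL and 107 in TAL of Scd2f/f;CC mice. It was 1.80-fold higher in Scd2f/f TAL (log2 ratio 0.85), with 14.0% of genes past that ratio, and it passed 2-fold, at a log2 ratio of 1.17, with the groups scaled to an equal sum. Both TAL means of Slc40a1 lay above untreated liver.

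Macrophages, which recycle iron from red cells, are known for high ferroportin. Of all 16755 genes, 9004 were higher in Scd2f/f TAL than in untreated liver and 7676 lower. At least 2-fold higher were 1570 of all genes, and 785 were that much lower. Macrophage markers were higher in Scd2f/f TAL for 10 of 10 genes, all past 2-fold, from a log2 ratio of 1.38 for Clec4f to 4.07 for Marco. Their summed means were 98.29 in untreated liver, 382.0 in Scd2f/f TAL and 327.8 in TAL of Scd2f/f;CC mice. Of the erythroid markers, 7 of 8 were found, with 5 of 7 lower by at least 2-fold in Scd2f/f TAL (Hba-a2 and Slc4a1 less than 2-fold lower with an equal sum, at -0.87 and -0.79) and summed means of 282.0, 96.24 and 190.5 in the 3 groups. The log2 ratios of erythroid genes in Scd2f/f TAL ran from -1.82 for Hbb-bs, a globin, to 0.51 for Epor, and the defining marker Slc4a1 was near 0 in each group, at 0.0716 to 0.305. T and B cell markers were higher for 8 of 8 genes, with summed means of 7.39, 31.93 and 22.37 and a highest log2 ratio in Scd2f/f TAL of 2.47, for Cd3e. Most of these sums was Ptprc, which all leukocytes express, with means of 5.82, 27.2 and 19.0. The part of these cells in the values of Slc40a1, Tfrc and the other genes of the list was not tested.

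**Figure D2:**
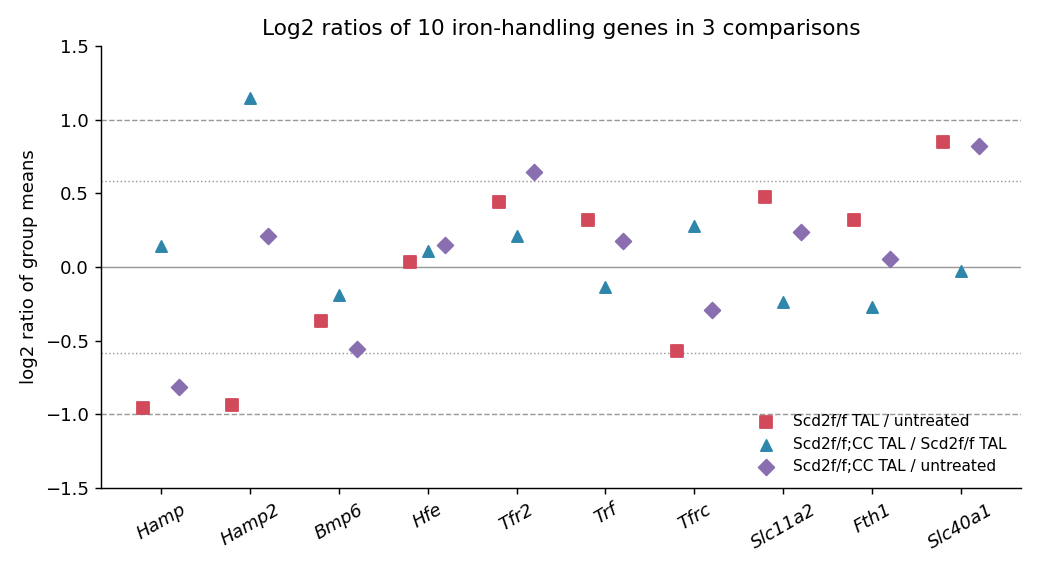
Log2 ratio of group means (vertical axis) for the 10 genes in the 3 comparisons, with dashed lines at 2-fold and dotted lines at 1.5-fold in either direction. Hamp, at -0.96 and -0.81, and Slc40a1, at 0.85 and 0.82, keep their sides in both comparisons with untreated liver, while Hamp2 stands alone above 2-fold between the TAL groups, at 1.15.

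The TAL groups, Scd2f/f;CC and Scd2f/f, were on the same regimen. Their comparison asks whether the loss of Scd2 in stellate cells and portal fibroblasts goes along with different RNA levels of these genes. For 9 of the 10 genes the TAL means were close, with ratios from 0.830 for Fth1 to 1.21 for Tfrc. Hamp2 was the exception, 2.21-fold higher in Scd2f/f;CC TAL (log2 ratio 1.15), where 5.89% of all genes were past 2-fold in either direction. It was also the 1 gene of the list higher by at least 1.5-fold, against 5.72% of all genes, and none was lower by at least 1.5-fold, against 9.80% of all genes. The median log2 ratio of the 10 genes was 0.04, with 5 higher and 5 lower, beside 0.00 over all genes, and it was -0.13, with 3 higher and 7 lower, with the groups scaled to an equal sum.

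The Hamp2 ratio of 2.21 rests on means of 1.31 and 2.90. Of the 12347 expressed genes, 2.12% had a larger ratio. With a pseudocount of 1 added to both means, its log2 ratio was 0.76, and with an equal sum over all genes 0.98, both below 2-fold. Hamp, whose transcript can share reads with it, had a log2 ratio of 0.14 between the same groups, which was -0.03 with an equal sum. The log2 ratio of Hfe was 0.11 and likewise turned to -0.06.

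Ferroportin had a nearly even pair of means in the TAL groups, with 109 in Scd2f/f TAL, 107 in Scd2f/f;CC TAL and 89.3% of genes past its log2 ratio of -0.03, which was -0.20 with an equal sum. Fth1 was 1.21-fold lower in Scd2f/f;CC TAL (log2 ratio -0.27), and its mean there, 454, was near the 438 of untreated liver. Tfr2 and Tfrc had log2 ratios of 0.21 and 0.28, and Slc11a2, Bmp6 and Trf of -0.24, -0.19 and -0.14. Over the same pair of groups, 8308 of all 16755 genes were lower and 8298 higher, and 5.89% were past 2-fold in either direction. Stellate and portal fibroblast markers were lower for 10 of 10 genes, from -0.25 for Lrat to -2.12 for Col1a1. Their summed means were 341.9 without Cre and 195.7 with it. Cholangiocyte markers were lower for 6 of 6 genes, from -0.52 for Sox9 to -2.61 for Cftr, with sums of 53.94 and 19.24. Most of these sums was Spp1, with means of 45.1 and 14.8, and the Cftr ratio rests on means of 0.799 and 0.131. Macrophage markers, with 8 of 10 lower (9 with an equal sum) and log2 ratios from -0.65 for Cd68 to 0.30 for Timd4, held none past 2-fold. Of the endothelial markers, 7 of 10 were lower (9 with an equal sum), from -0.94 for Lyve1 to 0.20 for Kdr, with sums of 188.1 and 188.7. The part of these cell types in the iron genes was not tested.

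**Figure D3:**
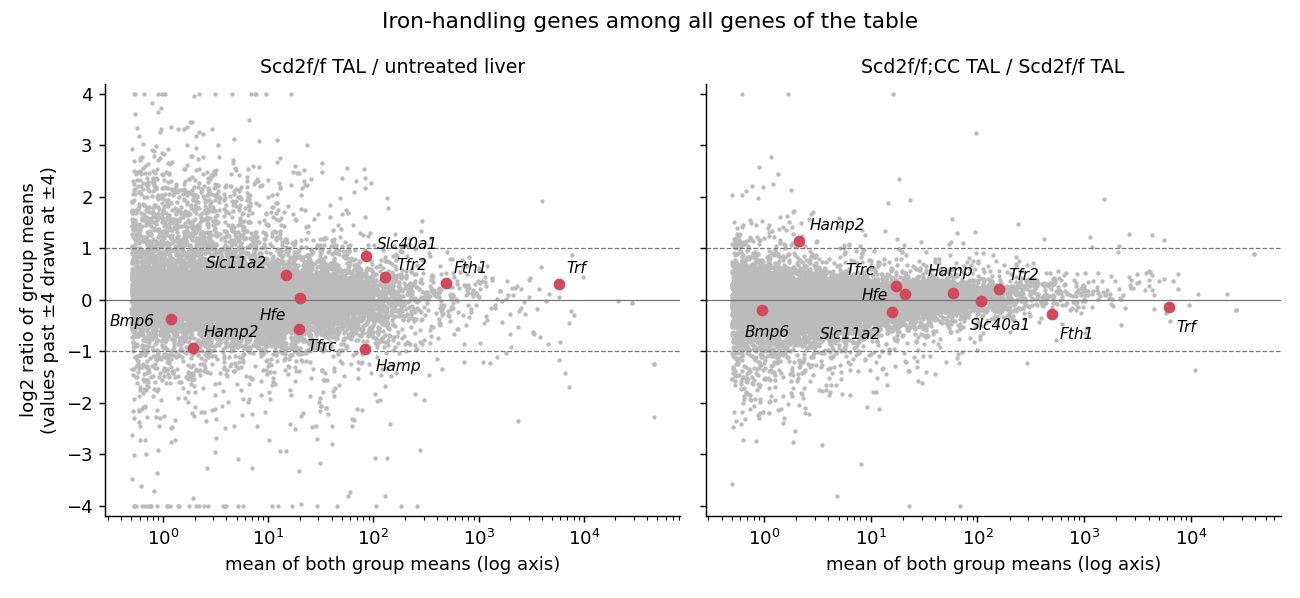
Mean of both group means (horizontal log axis) against their log2 ratio (vertical axis, values past 4 in size drawn at the edge) for all genes with such a mean of at least 0.5 (grey) and the 10 iron genes (red), for Scd2f/f TAL against untreated liver (left) and for the TAL groups, Scd2f/f;CC over Scd2f/f (right). The red points lie within the grey cloud, within 2-fold on the left, and on the right Hamp2 lies past 2-fold at a low mean.

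Scd2f/f;CC TAL against untreated Scd2f/f liver shares a group with each of the other comparisons, so its values follow from theirs and are given only side by side. None of the 10 genes was past 2-fold, against 11.0% of all genes. Slc40a1, at a log2 ratio of 0.82, and Tfr2, at 0.64, were higher by at least 1.5-fold, against 14.9% of all genes. Hamp, at -0.81, was lower by at least 1.5-fold, against 10.9% of all genes. Here 7 genes were higher and 3 lower, and the median log2 ratio was 0.16 beside 0.05 over all genes. Hamp2, with means of 2.51 and 2.90, was at 0.21, on the other side of untreated liver from Hamp, while Fth1 was at 0.05, Trf at 0.18, Slc11a2 at 0.24, Hfe at 0.15 and Bmp6 at -0.56.

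Of 77 other genes of iron and heme handling that were listed by role, 71 were found. In Scd2f/f TAL against untreated liver, 45 were higher and 26 lower, with a median log2 ratio of 0.08, beside 9004 higher and 7676 lower of all 16755 genes. With the groups scaled to an equal sum 62 were higher and 9 lower. That scaling raised every log2 ratio of this comparison by 0.32. Counts over all genes with an equal sum were not computed for any comparison, so equal-sum counts have no share beside them. Past 2-fold were 4 of the 71 genes, all higher, beside 14.1% of all genes. Lcn2, which encodes the siderophore-binding lipocalin of the acute phase, had means of 5.21, 41.8 and 14.1 in untreated liver, Scd2f/f TAL and Scd2f/f;CC TAL, an 8.02-fold higher mean in Scd2f/f TAL. Hmox1, the heme oxygenase that frees iron from heme, had means of 4.25, 17.4 and 11.1 and was 4.09-fold higher. Socs3, a STAT3 target and feedback inhibitor, had means of 6.44, 16.2 and 4.71 and was 2.52-fold higher. Steap3, an endosomal ferrireductase, had means of 4.70, 10.9 and 11.9 and was 2.32-fold higher. Socs3 and Lcn2 were also the 2 genes of this list past 2-fold between the TAL groups, with log2 ratios of -1.78 and -1.57, beside 5.89% of all genes, while Steap3 was at 0.13, or -0.04 with an equal sum, and Hmox1 at -0.65. With an equal sum there were 3, the third being Heph, a ferroxidase like ceruloplasmin, with means of 1.08, 1.59 and 0.811 and a log2 ratio of -0.97, or -1.14 with an equal sum. Between these groups 35 of the genes were higher and 35 lower, beside 8298 and 8308 of all genes. With an equal sum, which lowered every log2 ratio between these groups by 0.17, 11 were higher and 60 lower. Against untreated liver, Scd2f/f;CC TAL had 44 higher and 27 lower, beside 9126 and 7548 of all genes, or 53 and 18 with an equal sum. Lcn2, Hmox1 and Steap3 were past 2-fold there, at log2 ratios of 1.44, 1.39 and 1.34, beside 11.0% of all genes.

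Between 1.5-fold and 2-fold in Scd2f/f TAL stood 6 more genes of these lists, named here after their values were seen. Cp, the plasma ferroxidase ceruloplasmin that works with ferroportin, had means of 581, 1030 and 931 in untreated liver, Scd2f/f TAL and Scd2f/f;CC TAL, and a log2 ratio of 0.83 in Scd2f/f TAL. Hfe2, the symbol in the table for hemojuvelin, the BMP co-receptor of hepcidin induction, had means of 14.3, 25.4 and 24.8, also a log2 ratio of 0.83. Both thus stood with Slc40a1, higher in both TAL groups. Slc39a14, the ZIP14 importer of iron not bound to transferrin, had means of 141, 75.2 and 83.9 and stood with Hamp, at a log2 ratio of -0.91 in Scd2f/f TAL. It was the 1 gene of the 71 lower by at least 1.5-fold, beside 11.3% of all genes, whereas 9 were higher by that much, beside 17.2%. Steap2, another ferrireductase, Id1, a BMP target, and Lrp1, a receptor for heme bound to hemopexin, had log2 ratios of 0.997, 0.795 and 0.658.

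The 22 genes of hepcidin induction that were found had a median log2 ratio of 0.16 in Scd2f/f TAL, with 17 higher and 5 lower, beside 9004 and 7676 of all genes. With an equal sum, which raised every log2 ratio by 0.32, the median was 0.47, with 20 higher and 2 lower. After centring the ratios on the median of expressed genes, 14 were higher and 8 lower. Bmp2, the other endothelial ligand, was level, with means of 11.1, 11.3 and 11.9, and Tmprss6, the protease that cleaves hemojuvelin, was at 130, 149 and 148. The known SMAD targets Id1, Smad6, Smad7 and Atoh8 had higher means in Scd2f/f TAL than in untreated liver, with spread unknown. Id1 had low means, of 1.32, 2.29 and 1.30, as did Smad6, of 2.32, 2.47 and 2.47. Smad7 had means of 6.01, 7.48 and 6.97, and Atoh8 of 5.10, 6.43 and 8.06. Il6ra, the IL6 receptor, had means of 36.6, 25.5 and 21.6, lower in both TAL groups. Il6st, Jak2 and Stat3, of the same IL6 route, had higher means in both TAL groups than in untreated liver. Their means were 131, 151 and 136 for Il6st, 11.5, 14.8 and 13.8 for Jak2, and 49.5, 54.8 and 52.7 for Stat3. The part of the BMP and IL6 routes in the Hamp values was not tested. Between the TAL groups, Id1, like Socs3, was lower in Scd2f/f;CC TAL, at a log2 ratio of -0.82. The list had 9 higher and 12 lower with a median of -0.02, beside 8298 and 8308 of all genes. With an equal sum it had 3 higher and 19 lower with a median of -0.19.

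The other genes of the lists in which a 5′ IRE was found did not share one side. Ftl1, the ferritin light chain, had means of 962, 1020 and 852 in untreated liver, Scd2f/f TAL and Scd2f/f;CC TAL. Alas2, the erythroid enzyme that starts heme synthesis, had 39.8, 30.3 and 33.5, while Fth1 and Slc40a1 were higher in Scd2f/f TAL. The IRE-binding proteins themselves, Aco1 (92.3, 108 and 114) and Ireb2 (80.9, 81.2 and 99.1), had no mean lower in TAL than in untreated liver.

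Heme synthesis and mitochondrial iron had medians near 0. In Scd2f/f TAL against untreated liver, 17.2% of all genes were higher and 11.3% lower by at least 1.5-fold. At any ratio, 9004 of all genes were higher and 7676 lower there, and 8298 and 8308 between the TAL groups. The 10 genes of heme synthesis had a median log2 ratio of -0.05 in Scd2f/f TAL (4 higher and 6 lower), none past 1.5-fold, and 0.14 between the TAL groups (8 higher and 2 lower). Both signs turned with an equal sum, to 0.27 (7 higher and 3 lower) and -0.03 (4 higher and 6 lower). Alas1, the rate-limiting step of hepatic heme synthesis, had means of 287, 221 and 179, a log2 ratio of -0.68 in Scd2f/f;CC TAL against untreated liver. The 12 genes of mitochondrial iron and Fe-S clusters had a median of -0.10 in Scd2f/f TAL, none past 1.5-fold, and 0.22 with the groups scaled to an equal sum. The heme scavengers Hpx, at 2040, 2180 and 2210, and Hp, at 949, 1230 and 1120, were a little higher in TAL, and Cd163, the macrophage receptor for hemoglobin bound to haptoglobin, was at 11.6, 8.44 and 12.9, unlike the macrophage markers in Scd2f/f TAL.

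**Figure D4:**
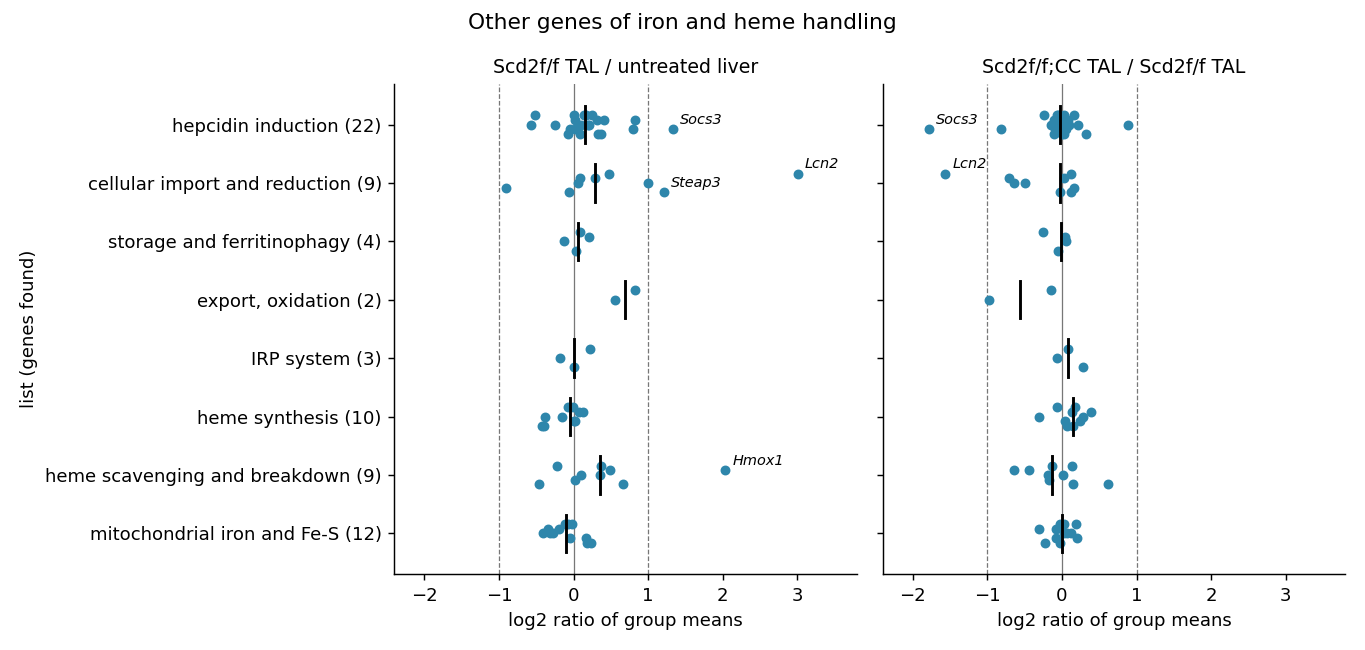
Log2 ratio of group means (horizontal axis) of the 71 other iron and heme genes, by list (vertical axis, number of genes found in parentheses), for Scd2f/f TAL against untreated liver (left) and for the TAL groups, Scd2f/f;CC over Scd2f/f (right). Each point is a gene, black bars are list medians, dashed lines mark 2-fold, and genes past it are named. Lcn2, Hmox1, Socs3 and Steap3 are past it on the left, and Socs3 and Lcn2 on the right, below 0.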

How the data were processed

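Polyadenylated RNA from 9 livers was sequenced by the authors (TruSeq libraries, NextSeq). The submitters' processing notes name STAR 2.6.1, Partek 6 and mm10. According to the study's methods, reads were assigned to Gencode M3 genes with the Partek E/M procedure, normalized to the upper quartile, and groups compared with Partek Gene Specific Analysis. The deposited table has 18 columns and gives the signal of each group, which is the authors' least-squares mean of normalized counts. It also gives the authors' p-values, FDR, ratios and fold changes of 2 comparisons, which were not used. The Scd2f/f TAL means are given with both comparisons and were the same for every gene. Whether the means were taken on a linear scale is not given in the sources used here. Depth per sample is unknown.

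Ratios of deposited means were computed for all 16755 genes without a pseudocount, and shares of genes past 2-fold and 1.5-fold served as the background. No test across mice was possible. The 10 genes, the wider lists and the marker lists were chosen with earlier results of these data known. All 10 genes are described. Of the other lists, genes past 2-fold with a mean of at least 1 and the ends of each marker list are named, besides genes stated or shown as single values for their role, which were chosen after their values were seen. Il6, Cybrd1, Ftmt, Hephl1, Flvcr1, Flvcr2 and the erythroid marker Ahsp were not found by symbol. Some items of the marker lists are not reported here. All 141 genes looked up overlapped the GENCODE M21 gene of the same symbol on GRCm38. The deposited end was 1 base past that of M21 for 131 of them, and ends are printed 1 base lower. Steps were tested on simulated data. Alternatives were other fold limits, pseudocounts of 0.1 and 1, a minimum mean of 1, centring on the median, scaling to an equal sum and, added after seeing the data, the length of the principal transcript. Software was Python 3.11.15 with NumPy 2.4.6, pandas 2.3.3 and Matplotlib 3.10.9.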

Additional observations from a re-analysis of the deposited data

How the results depend on the processing

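Hamp was lower and Slc40a1 higher than untreated liver in both TAL groups under all alternatives run. The fold limit was also set to 1.5 in place of 2. In Scd2f/f TAL against untreated liver, 3 of the 10 genes and 10 of the 71 other iron genes passed (0 and 4 at 2-fold). The yardstick there was 17.2% of all genes up and 11.3% down by at least 1.5-fold. Between the TAL groups 9 other iron genes passed (2 at 2-fold), beside 5.72% of all genes up and 9.80% down by that much. For Scd2f/f;CC TAL against untreated liver the counts were 3 and 13 (0 and 3 at 2-fold), beside 14.9% up and 10.9% down. Between the TAL groups, the count of 1 (Hamp2) was 0 at 3-fold, 0 with a pseudocount of 1 and 0 with an equal sum. With an equal sum over all genes, 1 of the 10 genes (Slc40a1) and 8 other iron genes passed 2-fold in Scd2f/f TAL against untreated liver. The share of all genes past 2-fold was not computed under this scaling, so these counts have no yardstick. The median log2 ratio of the 10 genes there, 0.18, was 0.15 after centring and 0.49 with an equal sum. Between the TAL groups the median of 0.04 was 0.11 with a minimum mean of 1, which leaves out Bmp6, and -0.13 with an equal sum, and Hamp and Hfe turned to -0.026 and -0.058. In Scd2f/f;CC TAL against untreated liver the median of 0.16 was 0.12 after centring and 0.31 with an equal sum. Hamp ranked 3 in place of 2 in untreated liver by level per kilobase of principal transcript, an alternative added after seeing the data. These shifts follow from how the alternatives are built. No paired analysis was possible because the table holds group means alone, and leaving out each replicate could not be run for the same reason. Depth and spread between mice are unknown and the authors' p-values were not used, so small ratios, and those of Hamp2 and Bmp6 at low means, have no error computed here.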
